A study of Caenorhabditis elegans with 4 samples.

Results

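The regions described here are the MRE-11 binding peaks on chromosome II of the nematode Caenorhabditis elegans. They are all the peaks that the authors' deposited lists place on that chromosome. The series-wide list, which is the main set, has 460 of its 2720 peaks there. The list of ChIP replicate 1 has 427 of 2471, and the list of ChIP replicate 2 has 237 of 1294. Peaks were chosen by chromosome name only, so no score or width entered the choice.

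MRE-11 is a nuclease that works in a complex with RAD-50 at DNA double-strand breaks, where it trims the broken ends. In the worm germline it acts with the SPO-11 enzyme during meiosis, when programmed breaks are made and repaired, only some of them as crossovers. Worm autosomes have a gene-rich centre where crossovers are rare and a pair of arms, richer in repeats, where most crossovers fall.

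The chromatin immunoprecipitation and sequencing (ChIP-seq) series has 2 MRE-11 ChIP libraries and 2 input libraries, all from the strain fem-2(b245), genotype fem-2(b245)III. The fem-2 gene encodes a protein phosphatase of the sex determination pathway, and both ChIP and input carried the same mutation. The labels give hermaphrodites, germline-containing young adults, at 20 °C, and the growth protocol gives gravid adults. Whole worms were ground, so germline and somatic chromatin came together, and the cell type behind a peak cannot be read from the lists. No wild-type strain or mre-11 mutant was among the samples analysed here. Whether separate cultures gave the replicates is not in the labels. Read depth is unknown, so a region with no listed peak is not shown to lack MRE-11.

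Each peak has a position and a score that the authors' peak caller assigned, on a scale the files do not name. Replicate scores start just above 50 and series-wide scores start at 1.3, so the replicate and series-wide scales were not compared. All positions below are on chromosome II in WormBase WS220 and are given as first and last base. Gene positions on that build were not used here, so peaks are named by position only.

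Chromosome II carried MRE-11 peaks at a density close to that of the other 4 autosomes together. Replicate 1 listed 28.0 peaks per Mb on II and 27.9 on the other autosomes. Replicate 2 listed 15.6 and 14.98 peaks per Mb. In the series-wide list the densities were 30.2 and 30.9 peaks per Mb. Taken singly, the other autosomes differed widely, with V lowest and III highest in each list. They ran from 19.0 to 37.1 peaks per Mb in replicate 1 and from 8.73 to 21.1 in replicate 2. For series-wide peaks the range was 19.3 to 42.6. The ratio of II to the other autosomes was 1.02 ± 0.024 (SD, n = 2) over the replicates and 0.979 in the series-wide list. Peaks covered 5.81% of the chromosome in replicate 1 and 3.91% in replicate 2, with 1.22% for series-wide peaks.

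Peaks on II spanned a wide range of scores and sizes. Replicate 1 scores ran from 50.01 to 2680.23 with a median of 269, and replicate 2 scores from 53.76 to 3100 with a median of 279. Series-wide scores ran from 1.32 to 46.24 with a median of 8.165, against 7.62 over all chromosomes. The median width was 1771 bp in replicate 1 and 2252 bp in replicate 2, with 307 bp for series-wide peaks. Very strong replicate peaks were a smaller share of II than of the whole lists. Of the II peaks, 30 of 427 (7.03%, 95% exact interval 4.79 to 9.88%) were among the strongest 10% of replicate 1, and 13 of 237 (5.49%, 2.95 to 9.20%) among the strongest 10% of replicate 2. The share over all chromosomes was 10% by construction. On the other 4 autosomes the shares were 10.1% and 9.24%. Low shares were not particular to II, since chromosome V had 5.79% and 4.95%. Chromosomes I, III and IV were higher than II in both replicates, and the X chromosome had 17.2% and 47.1%. In the series-wide list 46 of 460 II peaks (10%, 7.41 to 13.1%) were in the strongest 10%. The interval of the replicate 2 share overlapped that of the other autosomes (7.53 to 11.2%), as did that of replicate 1 (8.75 to 11.5%). Intervals take peaks as independent and cover counting error only.

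The replicates were compared first, since a region marked in both libraries rests on more evidence. Nearly every replicate 2 peak on II recurred in replicate 1, and many replicate 1 peaks did not recur in replicate 2. Counting any overlap of at least 1 bp, 231 of 237 replicate 2 peaks (97.5%, 94.6 to 99.1%) had a replicate 1 counterpart, against 97.9% over all chromosomes. In the other direction, 231 of 427 replicate 1 peaks (54.1%, 49.2 to 58.9%) had a replicate 2 counterpart, against 51.7% over all chromosomes. Both shares on II are close to those backgrounds.

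Matched peaks lay almost on top of each other. On II 222 pairs matched one to one, and in 114 of them the narrower peak lay wholly inside the wider one. The midpoints were a median of 187.5 bp apart (quartiles 63.2 and 396 bp), and at most 1106 bp. No pair shared less than 50% of its narrower peak. Replicate 2 peaks were the wider ones in 134 of the 222 pairs, with a median width of 2234 bp against 2012 bp, although their scores were mostly lower. The replicate 1 score was higher in 185 pairs and the replicate 2 score in 37. The median log2 ratio of replicate 2 to replicate 1 score was -0.64 on II and -0.71 over 940 one-to-one pairs on the other autosomes. Scores of 145 pairs (65.3%) were within 2-fold of each other, against 64.4% on the other autosomes.

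Scores ranked the matched regions of II in a similar order in both libraries. Over 231 matched replicate 2 peaks Spearman's rho was 0.76 and Pearson's r on log10 scores was 0.74. The other autosomes had rho between 0.81 (chromosome IV) and 0.82 (chromosome I), so II had the lowest value of the 5. These are correlations across peaks that share 2 libraries, given as a description.

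**Figure D1:**
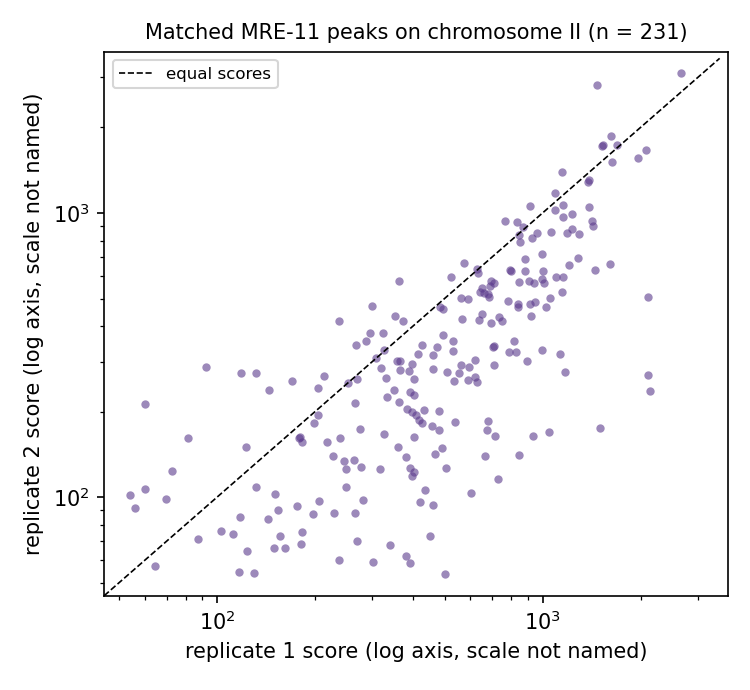
Scores of the 231 matched peaks on chromosome II, with the replicate 1 score on the horizontal and the replicate 2 score on the vertical log axis, 1 point per replicate 2 peak. Most points lie below the dashed line of equal scores, and the points of highest score in both libraries lie near it.

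The region with the best mean rank over both replicates was 9052586 to 9058707, with a score of 2664.55 in replicate 1 and 3100 in replicate 2. It held 3 series-wide peaks, the strongest at 9054196 to 9055044 with a score of 44.17. This was the only II peak of either replicate list at 3100, the value where replicate scores pile up.

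Next by mean rank came 8600559 to 8605349 (2080.03 in replicate 1, 1671.92 in replicate 2) and 11095854 to 11099426 (1696.54 and 1737.19). The region 6586920 to 6591258 scored 1625.14 and 1871.23, and 6488656 to 6493561 scored 1967.48 and 1565.48. In each of these 4 regions the scores of the replicates were within 2-fold of each other.

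Places 6 to 10 were 8568858 to 8572811, 9744710 to 9748513, 11975408 to 11981327, 11105218 to 11108844 and 14348301 to 14351781. Their replicate 1 scores ran from 1386.77 to 1632.12. The region 11975408 to 11981327 stood apart among them, with 2826.96 in replicate 2, the second highest on II, and 1473.81 in replicate 1, where it was in place 17.

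Some regions were strong in 1 library and weak in the other. The peak at 15137959 to 15141491, near the right end, scored 2142.32 in replicate 1 (place 3) and 235.96 in replicate 2 (place 141). The region 5053922 to 5057930 scored 1496.48 and 175.73, and 12767453 to 12769370 scored 502.31 and 53.76. These 3 had the largest excess in replicate 1 among one-to-one pairs and were chosen after their values were seen. The largest excess in replicate 2, chosen in the same way, was at 11987789 to 11989557, with 92.71 in replicate 1 and 287.17 in replicate 2.

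Replicate 1 peaks with no counterpart were mostly weak. The 231 matched ones had a median score of 493 and a median width of 2019 bp. The 196 unmatched ones had medians of 119 and 1416.5 bp. The matched share was 15.4% (6 of 39) in the weakest score decile, 53.7% (22 of 41) in decile 5 and 95.7% (45 of 47) in decile 9. In the strongest decile it was lower, at 76.7% (23 of 30, interval 57.7 to 90.1%). On the other autosomes those 4 deciles had 8.52%, 46.6%, 94.3% and 86.2%.

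The 7 unmatched peaks in the strongest decile included the highest replicate 1 score on II. That peak, 9631430 to 9634974, scored 2680.23, had no replicate 2 peak, and held 3 series-wide peaks of up to 19.1. The peaks at 12843289 to 12846505 (2064.51), 4640667 to 4645433 (1839.4) and 8287131 to 8293151 (1407.47) had neither a replicate 2 nor a series-wide peak. They were the only 3 of the 30 peaks in that decile with no series-wide peak. A series-wide peak was held by 27 of the 30 (90%), against 228 of 248 (91.9%) in that decile over all chromosomes. The fourth of the strongest unmatched peaks, 1450420 to 1455078, scored 1524.74 and held 4 series-wide peaks of up to 10.04. On II, as on the other autosomes, high replicate 1 scores were thus not always accompanied by a peak in the other lists.

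**Figure D2:**
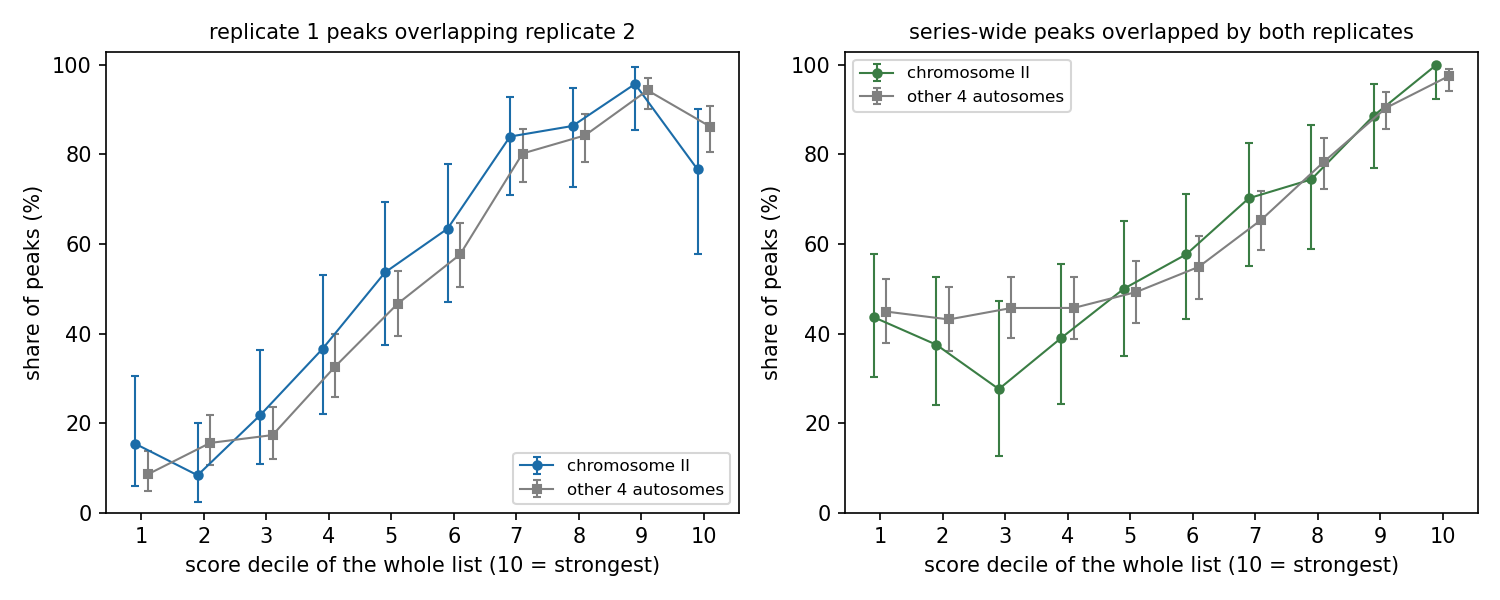
Share of peaks supported by other lists, on the vertical axis in percent, by score decile of the whole list, for chromosome II and for the other 4 autosomes. Points are shares and bars are 95% exact Clopper-Pearson intervals. The replicate 1 share on II rises to 95.7% in decile 9 and is 76.7% in decile 10, while the series-wide share reaches 100% in decile 10.

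Only 6 replicate 2 peaks on II had no replicate 1 peak, and 5 of the 6 fell into 2 short stretches. In the left stretch, which spanned 12.6 kb, replicate 2 listed 548031 to 549127 (score 103.36), 551671 to 553148 (272.68) and 559342 to 560623 (95.4) without a replicate 1 peak. Between the first and second of these lay a matched peak, 549342 to 550641, with 160.88 in replicate 2 and 81.14 in replicate 1. The first held a series-wide peak of 11.94 and the second one of 2.17. They were the only 2 series-wide peaks on II overlapped by replicate 2 alone.

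In the right stretch, replicate 2 listed 6 peaks within 24.5 kb. They began with the strong 11975408 to 11981327 peak described above. The next were 11986164 to 11987649 (65.95, no replicate 1 peak), 11987789 to 11989557 (287.17) and 11990847 to 11992126 (125.16, no replicate 1 peak). The last were 11992514 to 11997146 (212.91) and 11997186 to 11999876 (106.45). Both lay over a single weak replicate 1 peak of 7238 bp, 11992539 to 11999776, with a score of 59.91. All 4 replicate 1 and replicate 2 pairs in this stretch had the higher score in replicate 2, whereas on II as a whole most did not. The stretches were picked out after the values were seen. The remaining unmatched replicate 2 peak, 6296212 to 6297568, had the highest score of the 6, at 763.98, and no series-wide peak.

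Support of the series-wide peaks by the replicate lists was counted next. Because that list is not independent of them, no test was made. Of the 460 II peaks, 277 (60.2%, interval 55.6 to 64.7%) were overlapped by both replicates, against 59.5% over all chromosomes. A further 152 (33.0%) were overlapped by replicate 1 only, against 34.3%, and 29 (6.30%, 4.26 to 8.93%) by neither, against 5.96%. The proportions on II are close to the background. A further 2 peaks (0.435%, against 0.257%) were those overlapped by replicate 2 only.

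Support went with score and width. Peaks overlapped by both replicates had a median score of 11.94 and a median width of 419 bp. Those with replicate 1 only had 6.01 and 231.5 bp, and those with neither had 3.29 and 183 bp. All 46 II peaks in the strongest series-wide decile, from 26.71 upward, were overlapped by both replicates, against 267 of 272 (98.2%) over all chromosomes. None of the 189 peaks in the 4 strongest deciles lacked both a replicate 1 and a replicate 2 peak, against 7 of 1088 (0.643%) over all chromosomes. The strongest of the 29 without either were 13016393 to 13016603 (9.11), 12799933 to 12800086 (8.83) and 8062284 to 8062469 (7.17). After these came 13596603 to 13596881 (6.61) and 6926490 to 6926646 (5.27).

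The 10 strongest series-wide peaks on II were each under 1 kb wide and present in both replicates. All but the ninth were 660 to 891 bp wide, above the upper quartile of 518.75 bp for series-wide peaks on II. The first was 14561313 to 14562151, with a series-wide score of 46.24, a replicate 1 score of 1060.73 and a replicate 2 score of 858.01. The second, 13872234 to 13872965, scored 45.55, and its replicates scored 1289.75 and 843.6. Both lie in the right arm, and in the replicate lists they held places 43 and 26 (the first) and 26 and 29 (the second).

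The third series-wide peak was the one inside the region with the best mean rank over both replicates, at 44.17. The fourth to eighth were 8569277 to 8570052 (42.07), 10797962 to 10798740 (41.56), 13369190 to 13369889 (41.1), 11097031 to 11097921 (39.24) and 14154122 to 14154796 (39.24). Their replicate 1 scores lay between 962.25 and 1696.54. The tenth, 580116 to 580775 (36.08), lay in the left arm, to the right of the replicate 2 stretch described above, and was the first by position of several tied at that score.

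The ninth, 4047904 to 4048180, was unlike the others. It was 277 bp wide and scored 36.53, while its replicate peaks scored only 408.1 (place 155) and 195.18 (place 152). Ranks therefore differed between the list types. Of the 10 strongest series-wide peaks, 2 overlapped one of the 10 strongest replicate 1 peaks and 4 one of the 10 strongest replicate 2 peaks. Among the 100 strongest these counts were 71 and 64.

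The strongest series-wide peak in a replicate peak mostly lay near the middle of that broader peak. For the strongest series-wide peak in each of 334 replicate 1 peaks, the midpoint lay a median of 155 bp from the centre of the replicate peak, and 290 (86.8%) lay within 500 bp. In 220 replicate 2 peaks the median was 224.75 bp, with 171 (77.7%) within 500 bp. On the other autosomes the medians were 170.5 and 287.5 bp. As a share of the distance from centre to edge of the replicate peak, the II medians were 15.1% and 22.3%. Over all overlapping series-wide peaks on II the medians were 202 and 255.5 bp. The lists are not independent, and no expected distance was computed.

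**Figure D3:**
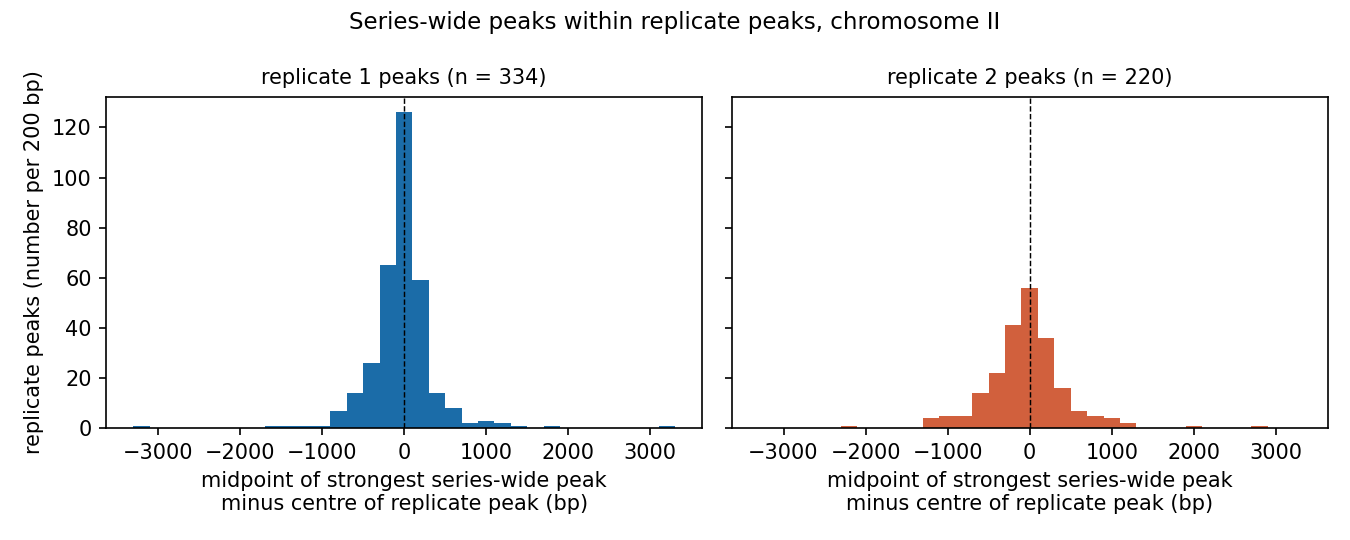
Distance in bp from the centre of each replicate peak on chromosome II to the midpoint of its strongest series-wide peak, counted in classes of 200 bp, for replicate 1 (334 peaks) and replicate 2 (220 peaks). Both distributions peak at the centre, with medians of 155 and 224.75 bp without regard to side.

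Most replicate peaks on II contained a single series-wide peak. Of the 427 replicate 1 peaks, 334 (78.2%, against 78.8% over all chromosomes) held at least 1, namely 270 with 1, 44 with 2 and 20 with 3 or more. The median width rose over these classes from 1690 to 2526.5 and 3691 bp. The 93 that held none had a median score of 94.8. Of the 237 replicate 2 peaks, 220 (92.8%, against 93.9%) held at least 1.

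The region 3159219 to 3168808 held the most. This replicate 1 peak was 9590 bp wide with a score of 1213.42, and it contained 8 series-wide peaks in a row from 3159637 to 3168394. The last of these, 3165834 to 3168394, was the widest series-wide peak on II (2561 bp, score 15.4), ahead of 6587891 to 6589216 (1326 bp) and 5630462 to 5631738 (1277 bp). Replicate 2 listed no peak there. The next were 1034224 to 1036709 with 5 series-wide peaks, also with no replicate 2 peak, and then 4 replicate 1 peaks that held 4 each, 3 in the left arm and 1 in the right. The first of these by position, 1319622 to 1323061, was listed by replicate 2 at 659.31. The widest replicate peaks were elsewhere, at 10540293 to 10549929 (9637 bp) in replicate 1 and 10557008 to 10564068 (7061 bp) in replicate 2. The region 10574351 to 10580954 followed at 6604 bp in replicate 2, and 10540638 to 10547578 was 6941 bp wide there. These 3 widest replicate 2 peaks thus all lay between 10540638 and 10580954.

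When overlapping peaks of the 3 lists were merged, II held 458 regions. All 3 lists marked 215 of them (46.9%), with a median replicate 1 score of 533 and a median series-wide score of 14.42. Replicate 1 and the series-wide list alone marked 117, with medians of 153 and 6.49. Replicate 1 alone marked 79, the series-wide list alone 29, both replicates without the series-wide list 12, and replicate 2 alone 4. The other 2 were marked by replicate 2 and the series-wide list. Peaks were merged on II only, so these counts have no share over all chromosomes beside them.

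Position along the chromosome was examined next, because centre and arms differ in crossovers and gene content. Here the centre is the middle of 3 equal parts and the arms are the outer parts. These parts were set by length only, so their borders need not be those of the crossover-rich and crossover-poor domains. II had more peaks per length in its centre than in its arms as a whole, and more in the right arm than in the left. Replicate 1 listed 102, 162 and 163 peaks in the left arm, centre and right arm. Replicate 2 listed 45, 109 and 83, and the series-wide list 112, 185 and 163. The centre thus held 37.9%, 46.0% and 40.2% of the II peaks, against 38.5%, 44.6% and 37.5% over all chromosomes.

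Centre density over arm density, as a log2 ratio, was 0.29 in replicate 1 and 0.77 in replicate 2, with 0.43 for series-wide peaks. Over the replicates it was 0.53 ± 0.34 (SD, n = 2). The other autosomes ran from 0.36 to 0.47 in replicate 1 and 0.60 to 0.97 in replicate 2, with 0.23 to 0.46 for series-wide peaks. II lay within those ranges in 2 lists and below them in replicate 1.

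The arms of II, as defined here by length, were less even in peak number than those of the other autosomes. The log2 ratio of right arm to left arm peaks was 0.68 in replicate 1 and 0.88 in replicate 2, with 0.54 for series-wide peaks. On the other autosomes it ran from -0.17 to 0.12 in replicate 1 and from -0.10 to 0.25 in replicate 2, with -0.09 to 0.19 for series-wide peaks. II had the highest ratio of the 5 autosomes in each list. The lists share their libraries and 1 chromosome was set against 4, so no test was made, and the difference is a description.

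**Figure D4:**
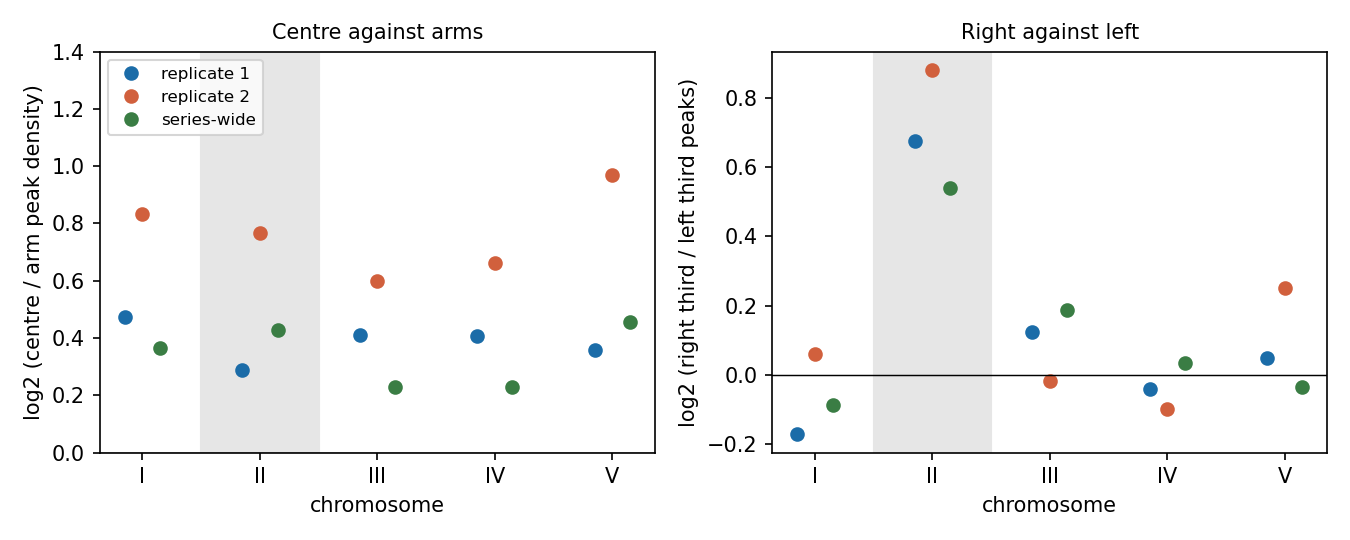
Log2 ratio of peak density in the centre to that in the arms (left panel) and of right arm to left arm peaks (right panel) for each autosome, 1 point per list, with chromosome II shaded. II lies among the other autosomes on the left, apart from the low replicate 1 value of 0.29, and above them on the right, at 0.54 to 0.88.

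The chromosome was also divided into 10 equal segments. Segment 3, counted from the left, held 23 replicate 1, 10 replicate 2 and 28 series-wide peaks, which was 5.39%, 4.22% and 6.09% of the II peaks. On the other autosomes the same segment held at least 10.0%, 9.66% and 10.4%. Segment 8 went the other way, with 59, 36 and 58 peaks, or 13.8%, 15.2% and 12.6%, against at most 12.6%, 10.5% and 9.70% on the other autosomes. So segment 3 of II was below, and segment 8 above, the range of the other 4 autosomes in all 3 lists. Other segments left that range in 1 or 2 lists. Segment 10 was above it in both replicates, and segment 9 was below it for replicate 1 and for series-wide peaks. Series-wide peaks alone placed segment 7 above it and segment 2 below. Of the 10 segments, 2 were above and 2 below the range in replicate 1. In replicate 2 these counts were 2 and 1, and in the series-wide list 2 and 3. A range of 4 chromosomes is narrow, so any autosome can be expected to leave it in some segments. The lists share their libraries and no test was made, so these segments are a description only.

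The ends of II were richer than the segments beside them. Segment 1 held 36, 18 and 48 peaks in replicate 1, replicate 2 and the series-wide list, and segment 2 held 24, 6 and 17. Segment 10 held 55, 22 and 59, and segment 9 held 30, 15 and 28. Some ends of other autosomes were richer in the same way. Segment 1 exceeded segment 2 in each list on IV and V, but not on I or III. Segment 10 exceeded segment 9 in each list on III, but not on I, IV or V. Replicate 1 listed a peak from base 2 to base 1213 (score 245.41) and its last from 15232331 to 15233873 (score 301.02). Replicate 2 had no peak before 42103 or after 15141260.

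Replicate 1 peaks were matched less often toward the ends, on II and on the other 4 autosomes. On II the matched share was 44.4%, 25% and 43.5% in segments 1 to 3. It lay between 57.6% and 68.1% in segments 4 to 8, and was 50% and 40% in segments 9 and 10. On the other 4 autosomes, pooled, it was 45.3%, 39.9% and 50.7% in segments 1 to 3, between 51.7% and 63.5% in segments 4 to 8, and 36.2% and 47.7% in segments 9 and 10. Of the replicate 2 peaks on II, 83.3% (15 of 18) were matched in segment 1 and 100% in segments 2, 3, 9 and 10. The 3 unmatched peaks of segment 1 were those of the left stretch described above. On the other 4 autosomes, pooled, 67 of 67 replicate 2 peaks in segment 1 were matched. In segments 2, 3, 9 and 10 the pooled replicate 2 shares ran from 94.8% to 100%. Scores on II did not follow the order of the replicate 1 shares. The median replicate 1 score was 126 in segment 2, 287 in segment 6 and 410 in segment 9.

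**Figure D5:**
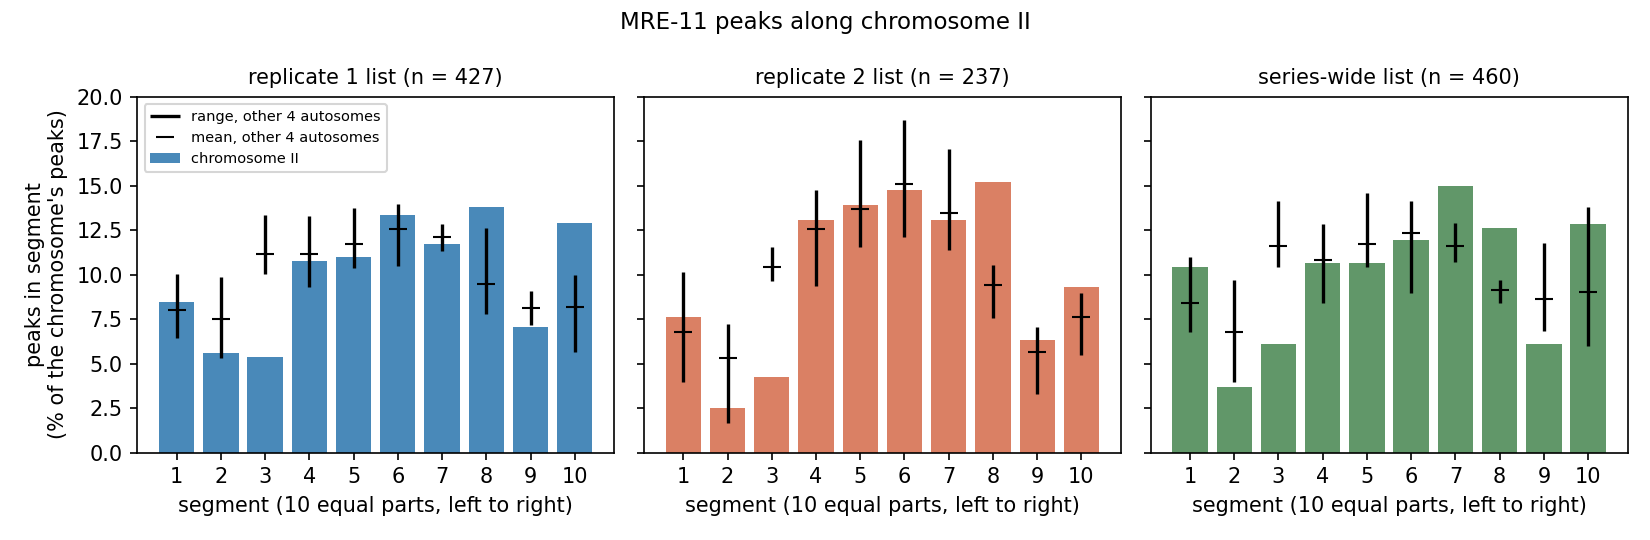
Peaks in each of 10 equal segments of chromosome II, left to right, as a percentage of the II peaks of each list (bars), with the range (black line) and mean (dash) of the same percentage over the other 4 autosomes. Segment 3 lies below the range and segment 8 above it in each panel.

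Long stretches without peaks were also mostly in the left arm. Replicate 2 listed none from 1403805 to 2058394 (655 kb), where replicate 1 had 12 and the series-wide list 17. It listed none from 702811 to 1319991 (617 kb) either, where replicate 1 had 9 and the series-wide list 11. A further stretch of the left arm was almost empty in every list. The series-wide list had no peak from 3554114 to 3933857 (379.7 kb), replicate 2 none from 3554469 to 3932704 (378 kb), and replicate 1 none from 3554708 to 3807605 (253 kb). The other long replicate 1 stretches were 1458475 to 1660984 (202.5 kb) and 12460606 to 12649131 (188.5 kb). The series-wide list also lacked peaks from 4049955 to 4299031 and from 5081443 to 5330185.

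Spacing was measured over the whole of II. The median distance between neighbouring peaks on II was 20695 bp in replicate 1 and 32301.5 bp in replicate 2, with 16730 bp for series-wide peaks. Of the series-wide peaks, 239 of 460 (52.0%, interval 47.3 to 56.6%) had a neighbour within 5 kb, against 50.7% over all chromosomes. The shares were 40.0% in replicate 1, against 36.3%, and 20.3% in replicate 2, against 21.3%. The densest 100 kb windows held 8 peaks in replicate 1 and lay at 6900001 to 7000000, 8900001 to 9000000 and 13800001 to 13900000. In the last of these replicate 2 had only 1 peak. The densest replicate 2 window was 11900001 to 12000000, with 8 peaks against 6 in replicate 1, followed by 8 windows with 5 each, of which 500001 to 600000 and 4900001 to 5000000 came first by position. In the series-wide list 4 windows held 10 peaks, among them 1400001 to 1500000, 5300001 to 5400000 and 6900001 to 7000000. The first of these lay mostly inside the stretch without replicate 2 peaks from 1403805 to 2058394, at its left end, and held 1 replicate 2 peak.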

How the data were processed

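MRE-11 ChIP-seq peak lists of 2 ChIP libraries and 1 series-wide list were used, and no values of the input libraries. Per the labels' protocols, chromatin was crosslinked for 20 min in EGS and 10 min in EGS with formaldehyde. Per the submitters' processing notes, the aligner was BWA and the build ce10, and per the file headers coordinates are on WS220. Per the file contents, replicate peaks were called with MACS and series-wide peaks with MACS v2. The sources used here give no caller thresholds, no control library and no pooling of reads. The deposited score of a peak is the authors' own value, used to rank and describe peaks within a list and to compare the replicate lists with each other.

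Samples were grouped by title. Overlaps of at least 1 bp, medians, Spearman's rho and 95% exact Clopper-Pearson intervals were computed with scipy 1.17.1, pandas 2.3.3 and numpy 2.4.6 under Python 3.11.15, and the interval functions were tested on simulated data. The largest listed peak end stood for the length of each chromosome (15233873 bp for II). Each replicate 2 peak was paired with its strongest overlapping replicate 1 peak. No test was made, because 2 libraries of 1 condition offer no comparison between conditions. Named regions are the 10 strongest series-wide peaks, the 10 best mean ranks over both replicates, the 5 strongest unmatched of each list, the 3 widest, the 3 densest 100 kb windows, the 3 longest empty stretches and the 3 replicate 1 peaks with most series-wide peaks. Others are named as chosen after their values were seen. The members and lists were chosen with earlier results of these data known.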

Additional observations from a re-analysis of the deposited data

How the results depend on the processing

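No paired analysis was possible because only the ChIP libraries have values here, so replicate numbers pair no 2 groups. Of 33 alternative values for 10 results on chromosome II, 23 moved by less than the spread or interval of the result. None reversed, which only results with a sign could do. With 2 replicates, leaving 1 out always stays within the SD around their mean, so those values could not count as moved. Leaving out peaks at the pile-up score could not change the replicate 1 score difference, because replicate 1 had no II peak there. Requiring 50% reciprocal overlap lowered the matched share of replicate 2 peaks to 93.2% and that of series-wide peaks in both replicates to 0%, since series-wide peaks are far narrower. With the replicate 1 list limited to the length of the replicate 2 list, 76.4% of replicate 2 and 81.1% of replicate 1 peaks were matched. Among peaks at or above the median score, 44.8% of series-wide peaks were overlapped by both replicates, 27.4% had a neighbour within 5 kb, and the density relative to the other autosomes was 0.956 over the replicates. That density was 0.963 by covered length. The cause was not tested for these. The neighbour share was 42.6% within 2 kb and 76.1% within 20 kb. Leaving out 1 replicate gave a relative density of 1.00 to 1.04 and a log2 centre to arm ratio of 0.29 to 0.77. Leaving out the outer segment at each end, chosen after seeing the data, gave 0.59 over the replicates and 0.62 in the series-wide list. Read depth is unknown, so the fewer replicate 2 peaks cannot be set against it.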
